A study of Homo sapiens with 108 samples.

Results

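SESN1, SESN2, SESN3 and DDIT4 are the stress-induced inhibitors of mTORC1, the kinase complex that drives protein synthesis and cell growth, and they were followed here in human melanoma cells exposed to carbon ions or X-rays. The array carried 6 probes whose only annotated gene was one of these 4 genes, of 54359 probes in all, and 5 of the 6 passed the filters on missing and low values. The 4 genes are among 13662 with a probe that passed. The members were chosen by their known role and selected on measured values too, namely their changes at 1 h and 3 h and their unirradiated levels in these lines, so those levels and changes are given as descriptions without a test. The difference between the beams and between the unirradiated sets, which the choice did not use, was tested.

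The study used 6 established melanoma lines: MeWo, HMV-I, HMV-II, C32TG, Colo679 and the uveal line 92-1. Each line received 2 Gy of carbon ions, with RNA taken 1 h or 3 h later, or 2 Gy of X-rays with the same times, and each beam had its own unirradiated set (0 Gy). That gave 36 groups of 3 arrays, 108 arrays in all, and the labels name no genetic change in any of them. The labels do not tell separate cultures from repeat arrays of 1 culture, so the spread within a group may be technical, and the line was taken as the independent unit. In such bulk RNA, fewer cells expressing a gene and less RNA per cell cannot be told apart.

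Sestrins hold mTORC1 down when amino acids or other supplies run short: they bind GATOR2, which frees GATOR1 to switch off the Rag GTPases that bring mTORC1 to the lysosome. SESN1 and SESN2 are classical p53 target genes, SESN2 is also induced by ATF4, the transcription factor of the integrated stress response, and SESN3 is mainly known as a FOXO target. DDIT4, also called REDD1, acts further upstream through the TSC complex on the small GTPase RHEB, is short-lived as mRNA and protein, and is induced by hypoxia through HIF1, by ATF4, by glucocorticoids and by p53.

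The promoters below are shown because SESN1, SESN2 and DDIT4 were higher at 3 h in most lines after both beams, and because they differ in the factor motifs they hold. For DDIT4 this holds for probe 492063 and not for its second probe, 111079. SESN3 was higher in 5 of 6 lines after X-rays but in 3 of 6 after carbon ions. Each is the RefSeq window of 250 bases before to 50 bases after an annotated start on GRCh38.p14, written along the gene's strand, with motif matches in capitals. RefSeq gives SESN1 3 start windows, of which the one printed is the one with a match to the p53 half-site (chr6:109008939-109009238, minus strand), 49 bases before the start. The DDIT4 window (chr10:72273674-72273973, plus strand) holds the HIF core ACGTG 125 bases before the start. The SESN2 window (chr1:28259268-28259567, plus strand) holds none of the motifs searched.
SESN1: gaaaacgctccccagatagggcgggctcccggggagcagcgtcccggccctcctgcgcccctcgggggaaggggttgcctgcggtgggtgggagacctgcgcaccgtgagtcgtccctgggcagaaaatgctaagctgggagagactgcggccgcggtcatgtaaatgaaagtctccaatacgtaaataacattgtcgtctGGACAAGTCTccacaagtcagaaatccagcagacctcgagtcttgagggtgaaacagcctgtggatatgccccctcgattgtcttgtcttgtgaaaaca
SESN2: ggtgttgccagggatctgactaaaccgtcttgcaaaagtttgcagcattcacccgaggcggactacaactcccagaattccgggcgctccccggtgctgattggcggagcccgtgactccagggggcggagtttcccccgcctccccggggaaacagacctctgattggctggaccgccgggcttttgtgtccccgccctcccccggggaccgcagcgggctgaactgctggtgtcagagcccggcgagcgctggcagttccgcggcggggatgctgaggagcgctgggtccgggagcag
DDIT4: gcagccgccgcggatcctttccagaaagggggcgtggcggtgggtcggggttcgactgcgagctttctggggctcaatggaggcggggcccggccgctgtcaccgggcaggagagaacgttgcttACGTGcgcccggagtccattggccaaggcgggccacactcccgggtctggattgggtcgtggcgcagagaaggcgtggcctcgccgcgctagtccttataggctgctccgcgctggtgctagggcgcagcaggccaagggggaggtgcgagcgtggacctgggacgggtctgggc

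The motifs were searched on both strands in all 35116 RefSeq promoter windows of the same length. The p53 half-site was found in 6.63% of them, the HIF core ACGTG in 21.4%, the ATF4 composite site TGATGNAA in 3.62% and the FOXO core GTAAACA in 3.42%. The other start windows of SESN1 and the window of SESN3 (chr11:95232426-95232725, minus strand) held no match to any of the 4 motifs. A match describes letters in a window and is not a measured binding site.

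All levels below are log2 intensities after quantile normalization, and a change is the mean of an irradiated group minus the mean of its control group (same line, same beam). Over the 32060 probes kept, the median change was 0.0040 to 0.0057 in the 4 comparisons of irradiated with unirradiated cells. The melanocyte identity of the lines was uneven, judged by each marker's median percentile over the 18 arrays of a line, irradiated or not. Of 9 melanocyte markers measured, 6 reached the 90th percentile in 92-1, 5 each in Colo679, HMV-II and MeWo, and 3 in C32TG. In HMV-I 1 did, and 7 lay below the 50th percentile. None of 5 keratinocyte and 3 leukocyte markers reached the 90th percentile in any line, and of 7 fibroblast markers 1 did in HMV-II and 1 in MeWo. Array medians as deposited spanned 0.38 on the log2 scale, and 1000 to 8034 values were missing per array.

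SESN1, a p53 target (probe 228073), was higher at 3 h in every line whichever beam was used, where 9.60% of probes were higher in 6 of 6 lines after carbon ions and 7.14% after X-rays. At 3 h the change averaged 1.06 ± 0.81 after carbon ions, a 2.08-fold change, and 0.93 ± 0.58 after X-rays, a 1.91-fold change (SD over 6 lines). All 3 irradiated arrays lay above all 3 unirradiated ones in 6 of 6 lines for both beams, a pattern seen for 0.406% of probes after carbon ions and 0.205% after X-rays. The rule for choosing SESN1 rested on this contrast, so nothing is read from those shares.

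The largest SESN1 changes were in C32TG and 92-1. In C32TG the carbon-ion arrays read 5.91, 5.99 and 5.83 at 3 h, against 3.81, 3.77 and 4.01 unirradiated, and the X-ray arrays read 4.90, 4.78 and 4.96 at 3 h, against 3.03, 3.27 and 3.25 unirradiated. In 92-1 they read 5.02, 5.14 and 5.25 after carbon ions, against 3.16, 3.28 and 3.20 unirradiated, and 4.36, 4.01 and 4.67 after X-rays, against 2.51, 2.77 and 2.96 unirradiated. These are changes of 2.05 and 1.70 in C32TG, and of 1.92 and 1.60 in 92-1, carbon ions given before X-rays.

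Colo679 and HMV-II formed a middle pair. Colo679 had 4.99, 5.34 and 4.69 at 3 h after carbon ions, against 3.94, 3.98 and 3.88 unirradiated, and 4.50, 4.76 and 4.68 after X-rays, against 3.9995, 3.98 and 3.93 unirradiated. HMV-II had 5.38, 5.55 and 5.41 after carbon ions, against 4.46, 4.47 and 4.58 unirradiated, and 4.87, 5.36 and 5.12 after X-rays, against 4.36, 4.37 and 4.35 unirradiated. HMV-II started from the highest SESN1 level of the 6 lines and still gained 0.94 after carbon ions and 0.76 after X-rays.

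HMV-I and MeWo changed least, though the arrays of each group did not overlap. HMV-I had 2.75, 2.87 and 2.73 at 3 h after carbon ions, against 2.64, 2.70 and 2.69 unirradiated, and 2.61, 2.81 and 2.83 after X-rays, against 2.18, 2.12 and 2.18 unirradiated. MeWo had 2.89, 2.93 and 2.79 after carbon ions, against 2.67, 2.69 and 2.44 unirradiated, and 2.23, 2.22 and 2.32 after X-rays, against 2.03, 2.02 and 1.89 unirradiated. In HMV-I the change after carbon ions was 0.11, against 0.59 after X-rays, and its irradiated arrays ended at nearly the same level while the unirradiated carbon-ion arrays stood 0.51 above the unirradiated X-ray arrays.

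**Figure D1:**
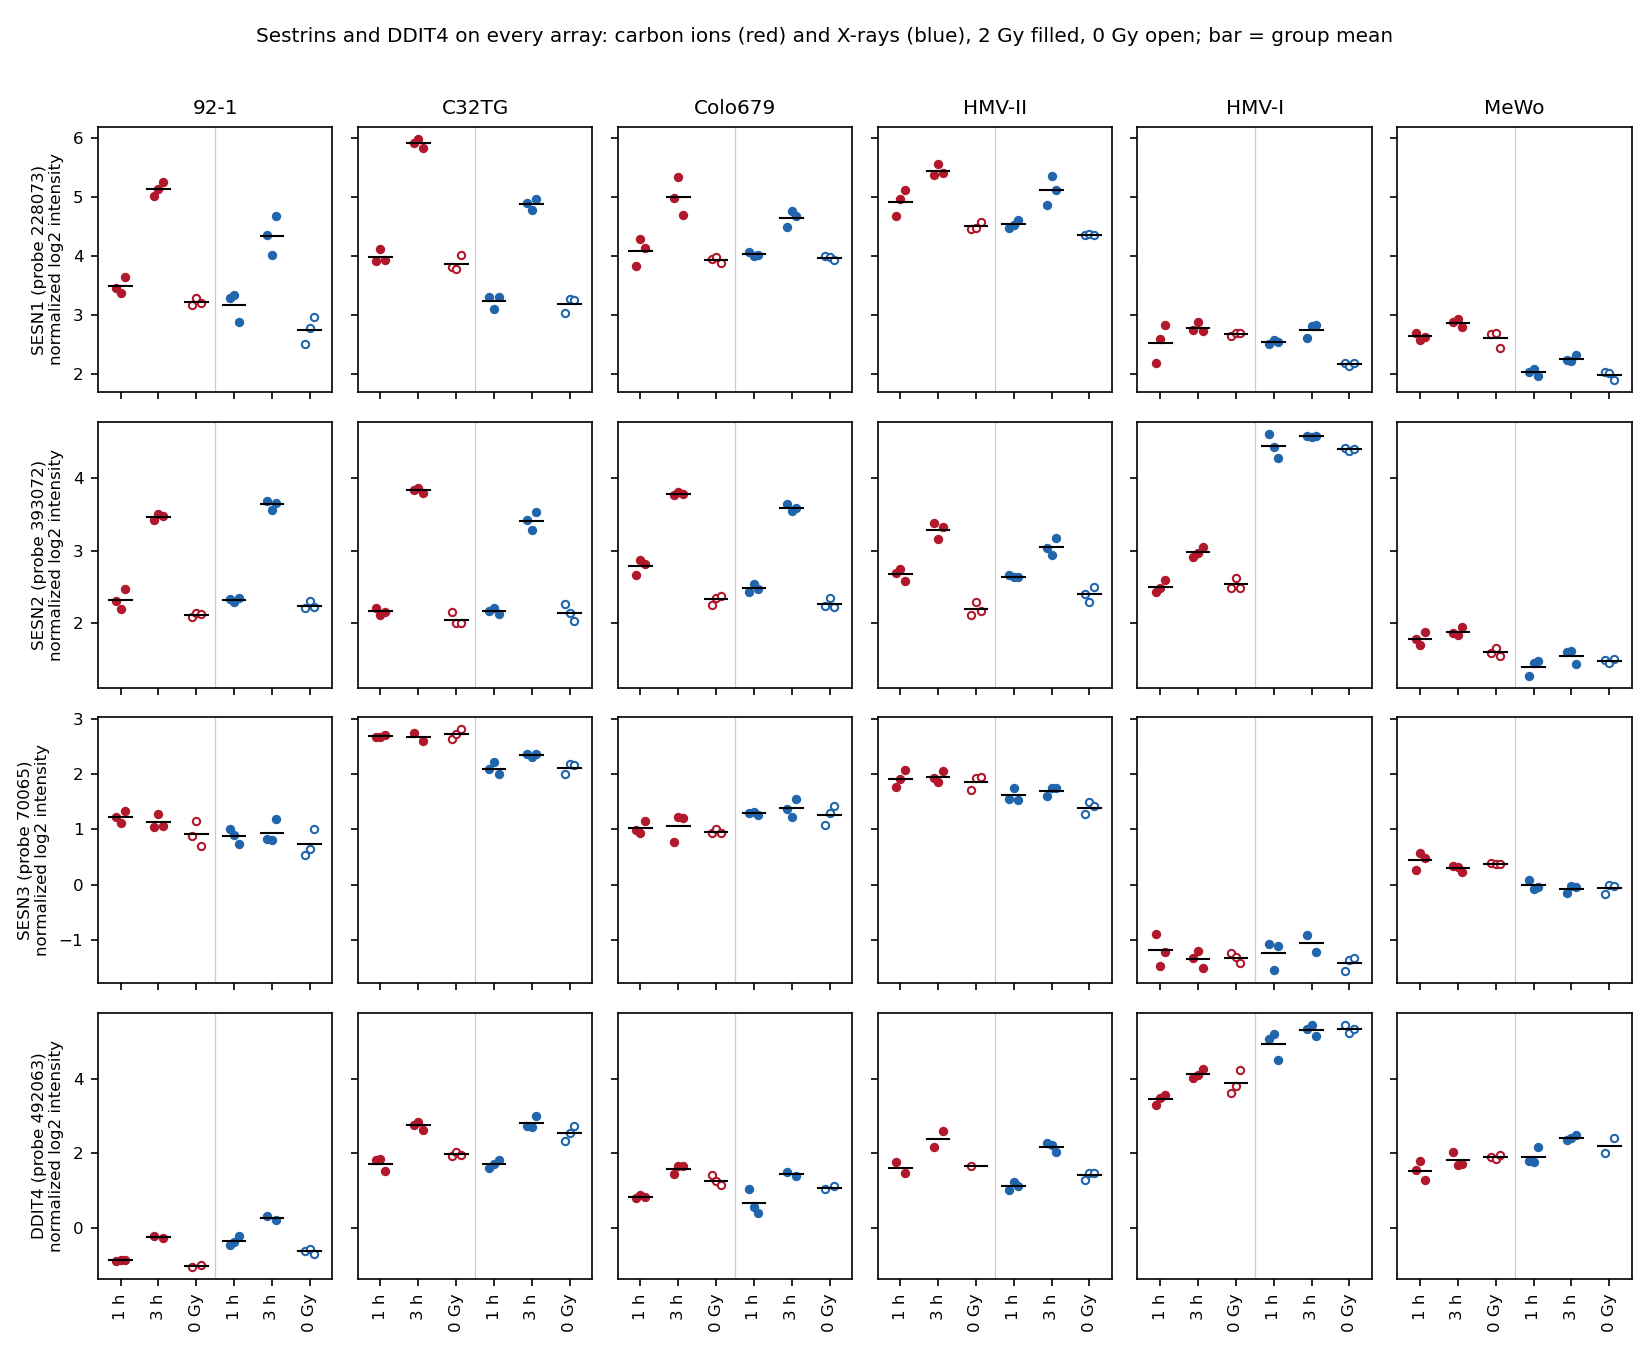
Normalized log2 intensity (vertical axes) of SESN1, SESN2, SESN3 and DDIT4 on every array, by line (columns) and by condition within each beam (horizontal axes: 2 Gy at 1 h, 2 Gy at 3 h, 0 Gy), with carbon ions in red, X-rays in blue, unirradiated arrays as open circles and group means as bars; levels can be compared along a row but not between probes. The 3 h arrays of SESN1 lie above the unirradiated arrays in every panel, and the HMV-I panels of SESN2 and DDIT4 show X-ray arrays far above the carbon-ion arrays, irradiated or not.

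At 1 h SESN1 had moved little. The change averaged 0.14 ± 0.19 after carbon ions and 0.19 ± 0.17 after X-rays (SD over 6 lines). All 3 arrays lay above their controls in 2 lines after carbon ions and in 3 lines after X-rays, where 11.9% and 10.0% of all probe and line combinations did so. From 1 h to 3 h SESN1 gained 0.92 ± 0.72 in carbon-ion cells and 0.74 ± 0.57 in X-ray cells, with a gain in 6 of 6 lines each time.

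SESN2, a target of p53 and of ATF4 (probe 393072), was likewise higher at 3 h in every line by its mean after both beams, as were 9.60% of probes after carbon ions and 7.14% after X-rays. The change averaged 1.07 ± 0.59 after carbon ions, 2.10-fold, and 0.82 ± 0.60 after X-rays, 1.76-fold (SD over 6 lines). The arrays of both groups did not overlap in 6 of 6 lines after carbon ions and in 5 of 6 after X-rays, MeWo being the exception. Over all probes, 0.406% lay above without overlap in 6 of 6 lines after carbon ions, and 15.2% of probe and line combinations did after X-rays. SESN2 too was chosen on this contrast, so nothing is read from these shares.

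In the lines with large SESN2 changes the spread of the arrays was small beside the change. In C32TG they read 3.83, 3.87 and 3.80 at 3 h after carbon ions, against 2.15, 2.00 and 2.00 unirradiated, and 3.42, 3.29 and 3.53 after X-rays, against 2.26, 2.14 and 2.02 unirradiated. Colo679 had 3.76, 3.80 and 3.77 after carbon ions, against 2.25, 2.35 and 2.38 unirradiated, and 3.64, 3.54 and 3.59 after X-rays, against 2.23, 2.34 and 2.22 unirradiated. In these lines every 3 h array stood far above every unirradiated array of its beam. In 92-1 the values were 3.42, 3.51 and 3.48 after carbon ions, against 2.08, 2.14 and 2.12 unirradiated, and 3.69, 3.57 and 3.65 after X-rays, against 2.20, 2.30 and 2.22 unirradiated. HMV-II had 3.38, 3.16 and 3.33 after carbon ions, against 2.11, 2.29 and 2.17 unirradiated, and 3.04, 2.94 and 3.17 after X-rays, against 2.40, 2.29 and 2.50 unirradiated. Only in 92-1 was the X-ray change (1.40) larger than the carbon-ion change (1.36).

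HMV-I stood apart through its unirradiated level. After carbon ions it had 2.91, 2.97 and 3.05 at 3 h, against 2.49, 2.62 and 2.49 unirradiated, a change of 0.44. After X-rays it had 4.58, 4.56 and 4.58, against 4.41, 4.38 and 4.40 unirradiated, a change of 0.18 from a start already above the 3 h level of every other line and beam. MeWo had the lowest SESN2 level of the 6 lines and changed least, with 1.87, 1.84 and 1.94 at 3 h after carbon ions, against 1.58, 1.66 and 1.54 unirradiated, and 1.60, 1.62 and 1.43 after X-rays, against 1.49, 1.45 and 1.50 unirradiated.

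At 1 h the SESN2 change averaged 0.24 ± 0.20 after carbon ions and 0.089 ± 0.12 after X-rays (SD over 6 lines). The carbon-ion arrays lay above their controls in 4 lines and the X-ray arrays in 2 lines, where 11.9% and 10.0% of all probe and line combinations did so. The largest 1 h changes were in HMV-II (0.48 after carbon ions, 0.25 after X-rays) and Colo679 (0.46 and 0.22), while C32TG, which changed most at 3 h after carbon ions, was at 0.11 and 0.030. From 1 h to 3 h SESN2 gained 0.83 ± 0.56 after carbon ions and 0.73 ± 0.56 after X-rays, again in 6 of 6 lines.

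**Figure D2:**
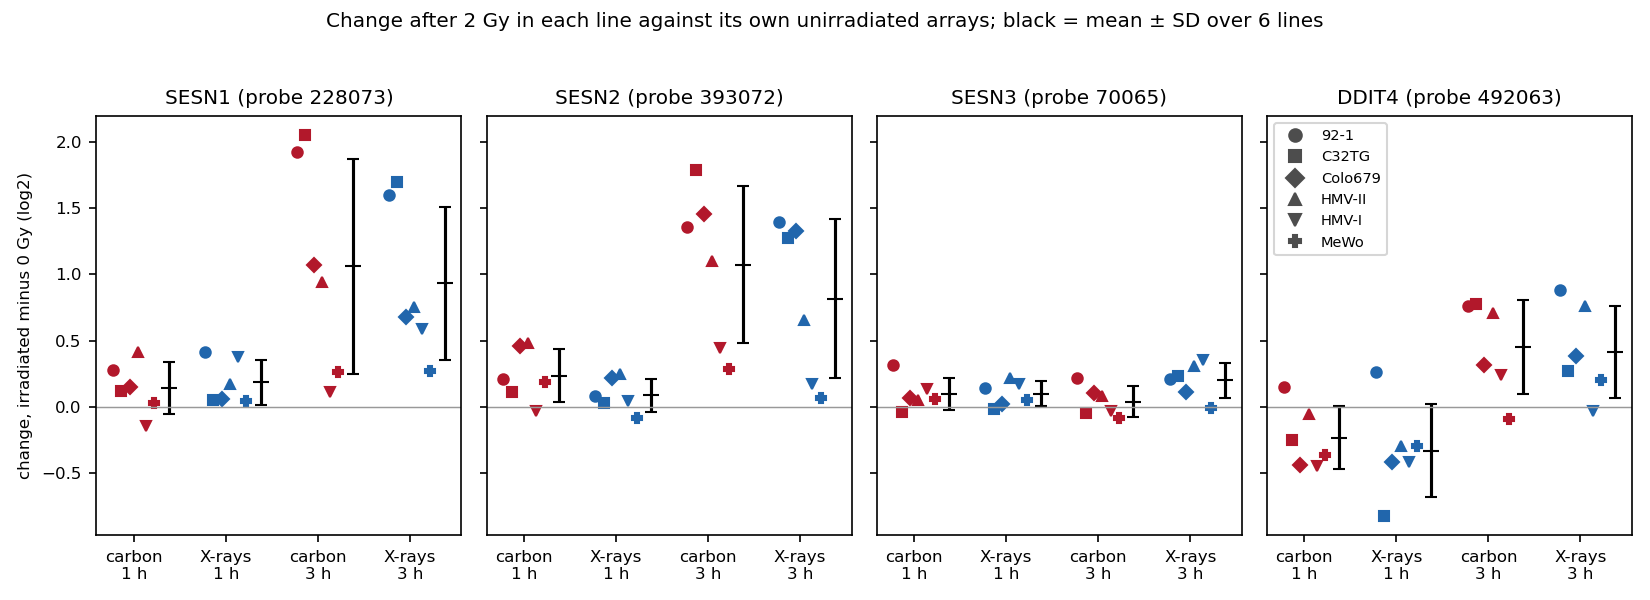
Change in log2 intensity, irradiated minus 0 Gy of the same line and beam (vertical axis), for each member at 1 h and 3 h after carbon ions (red) and X-rays (blue), with 1 symbol per line and black bars for the mean ± SD over 6 lines. SESN1 and SESN2 change mainly at 3 h and by line, and the SESN3 changes reach at most 0.35, at 3 h after X-rays. DDIT4 lies below 0 at 1 h and above 0 at 3 h in most lines.

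SESN3, known mainly as a FOXO target (probe 70065), had small mean changes. It was higher at 3 h in 3 of 6 lines after carbon ions and 5 of 6 after X-rays, and at 1 h in 5 of 6 after either beam. The change at 3 h averaged 0.042 ± 0.11 after carbon ions and 0.20 ± 0.13 after X-rays, and at 1 h 0.10 ± 0.12 and 0.10 ± 0.093 (SD over 6 lines). After X-rays at 3 h all measured arrays lay above the controls in 3 lines, where 15.2% of probe and line combinations did so. Among these was HMV-I, with the largest change (0.35). It had 2 measured arrays at 3 h (-1.22 and -0.92), against controls of -1.57 to -1.33. These levels lay under -0.41, the level filter's cut on a probe's mean log2 before normalization. After carbon ions at 3 h they lay above in no line and below in MeWo alone, against 17.4% and 15.9% of combinations. The second SESN3 probe (350096) failed the level filter: its mean lay at the 27.7th percentile of all probes, and its change at 3 h averaged 0.084 ± 0.22 after carbon ions and -0.026 ± 0.11 after X-rays.

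DDIT4 (probe 492063) went both ways with time. At 1 h it was lower in 5 of 6 lines after either beam, on average by a change of -0.23 ± 0.24 after carbon ions and -0.33 ± 0.35 after X-rays (SD over 6 lines). At 3 h it was higher in 5 of 6 lines after either beam, by 0.45 ± 0.35 after carbon ions and 0.41 ± 0.35 after X-rays, 1.37-fold and 1.33-fold. The step from 1 h to 3 h was upward in 6 of 6 lines for both beams and averaged 0.69 ± 0.24 after carbon ions and 0.74 ± 0.29 after X-rays. Of the 108 arrays, 10 had no value for this probe, and group means were taken over the arrays that had one.

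The fall at 1 h was widest in C32TG after X-rays. After carbon ions C32TG had 1.82, 1.85 and 1.52 at 1 h and 2.77, 2.85 and 2.63 at 3 h, against 1.92, 2.04 and 1.96 unirradiated. After X-rays it had 1.62, 1.71 and 1.82 at 1 h and 2.73, 2.70 and 2.99 at 3 h, against 2.34, 2.54 and 2.73 unirradiated. In both sets the 1 h arrays lay below the controls, while the 3 h arrays cleared them after carbon ions and overlapped them after X-rays.

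Colo679 followed the same course. After carbon ions it had 0.80, 0.88 and 0.83 at 1 h and 1.45, 1.66 and 1.66 at 3 h, against 1.42, 1.25 and 1.14 unirradiated. After X-rays it had 1.04, 0.56 and 0.38 at 1 h and 1.51 and 1.40 at 3 h, against 1.03 and 1.12 unirradiated, with 1 array missing from each of the last 2 groups. The 3 h arrays lay above the controls after both beams, by 0.32 after carbon ions and 0.38 after X-rays on the means.

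In HMV-I, the line with the highest DDIT4 level, DDIT4 was lower at 1 h and near its controls at 3 h. After carbon ions it had 3.29, 3.48 and 3.58 at 1 h and 4.02, 4.11 and 4.27 at 3 h, against 3.63, 3.81 and 4.24 unirradiated. After X-rays it had 5.07, 5.22 and 4.52 at 1 h and 5.36, 5.46 and 5.16 at 3 h, against 5.46, 5.24 and 5.35 unirradiated. The 1 h arrays lay below the controls for both beams, and the 3 h arrays overlapped them for both.

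92-1, the line with the lowest DDIT4 level, did not fall at 1 h. After carbon ions it had -0.90, -0.86 and -0.87 at 1 h and -0.23 and -0.29 at 3 h, against -1.04 and -1.001 unirradiated. After X-rays it had -0.46, -0.39 and -0.23 at 1 h and 0.31 and 0.19 at 3 h, against -0.63, -0.57 and -0.70 unirradiated. Its arrays were above the controls at both times and after both beams, with changes at 3 h of 0.77 after carbon ions and 0.88 after X-rays. The unirradiated arrays, at -1.04 to -0.57, lay under -0.41, the level filter's cut on a probe's mean log2 before normalization. Whether a fall can be seen from such a level was not tested.

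HMV-II and MeWo completed the set. After carbon ions HMV-II had 1.77 and 1.46 at 1 h and 2.16 and 2.60 at 3 h, against a single measured control array of 1.67. After X-rays it had 1.02, 1.22 and 1.12 at 1 h and 2.27, 2.22 and 2.03 at 3 h, against 1.28, 1.49 and 1.48 unirradiated. Its X-ray arrays lay below the controls at 1 h and above them at 3 h. MeWo had 1.55, 1.79 and 1.28 at 1 h and 2.03, 1.69 and 1.72 at 3 h after carbon ions, against 1.90, 1.85 and 1.95 unirradiated. The MeWo 3 h arrays after carbon ions overlapped their controls. After X-rays MeWo had 1.81, 1.77 and 2.17 at 1 h and 2.36, 2.42 and 2.48 at 3 h, against 2.02 and 2.40 in the control arrays that were measured.

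By the count of lines whose arrays did not overlap, DDIT4 at 1 h was below its controls in 4 lines after carbon ions and 3 after X-rays, where 11.9% and 9.30% of all probe and line combinations were. At 3 h it was above in 4 lines after carbon ions and 3 after X-rays, against 17.4% and 15.2% of combinations. HMV-II is counted there after carbon ions on its single control array.

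The second DDIT4 probe (111079), which also passed the filters, did not show the gain at 3 h. Its change at 3 h averaged -0.26 ± 0.12 after carbon ions and -0.18 ± 0.10 after X-rays, and was negative in 6 of 6 lines for both beams. Its arrays lay below the controls without overlap in 2 lines after carbon ions and 3 after X-rays, where 15.9% and 14.2% of combinations did. At 1 h its change averaged -0.19 ± 0.13 after carbon ions and -0.084 ± 0.069 after X-rays. It was positive in 1 of 6 lines each time. The 1 h arrays lay below the controls without overlap in 2 lines after carbon ions, where 11.9% of combinations did. After X-rays they overlapped the controls in 6 of 6 lines. The unirradiated means of this probe ran only from 0.60 in MeWo to 1.09 in HMV-I. 92-1, the lowest line by probe 492063, was at 0.91 by this probe, next below HMV-I. Which transcript or part of the gene each probe reads is not given in the sources used here. Every DDIT4 level, change or test given above or below therefore holds for probe 492063 only, unless the second probe is named.

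The unirradiated levels, averaged over the 6 control arrays of a line, ordered the lines differently for each member. SESN1 was highest in HMV-II (4.43 ± 0.089), followed by Colo679 (3.95 ± 0.044), C32TG (3.53 ± 0.39), 92-1 (2.98 ± 0.29), HMV-I (2.42 ± 0.28) and MeWo (2.29 ± 0.35). Only HMV-II and Colo679 were neighbours in that order whose arrays did not overlap. SESN2 was highest in HMV-I (3.47 ± 1.02) and lowest in MeWo (1.54 ± 0.074), and the arrays of MeWo lay below those of every other line. The lowest HMV-I array (2.49) lay above all arrays of Colo679, its neighbour in the order of means, but overlapped HMV-II, whose highest array was 2.50. The lines from Colo679 (2.30) to C32TG (2.09) overlapped from neighbour to neighbour.

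SESN3 spread over a wide range, with C32TG at 2.43 ± 0.34, HMV-II at 1.63 ± 0.28, Colo679 at 1.11 ± 0.20, 92-1 at 0.82 ± 0.24, MeWo at 0.16 ± 0.25 and HMV-I at -1.38 ± 0.11. The arrays of HMV-II overlapped those of Colo679, which overlapped those of 92-1, and the other neighbours were separate. DDIT4 ran from HMV-I at 4.62 ± 0.82 (n = 6 arrays) through C32TG (2.26 ± 0.33, n = 6), MeWo (2.03 ± 0.22, n = 5), HMV-II (1.48 ± 0.16, n = 4) and Colo679 (1.19 ± 0.15, n = 5) to 92-1 at -0.79 ± 0.22 (n = 5). Its arrays overlapped between C32TG and MeWo and between HMV-II and Colo679, and the other neighbours were separate. HMV-I was thus the highest line for DDIT4 and SESN2, the lowest for SESN3 and 1 of the lowest 2 for SESN1.

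Part of the spread within a line was a difference between the 2 unirradiated sets. In HMV-I SESN2 read 2.49, 2.62 and 2.49 in the carbon-ion set, against 4.41, 4.38 and 4.40 in the X-ray set, a difference of -1.86. DDIT4 there read 3.63, 3.81 and 4.24 in the carbon-ion set, against 5.46, 5.24 and 5.35 in the X-ray set, a difference of -1.46. In HMV-I 28.8% of all probes lay below without overlap and 27.4% above, and 2.07% differed by more than 1 in either direction, against 7.39% in MeWo and 0.109% in HMV-II.

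Other genes known to respond to ATF4 differed in the same direction as SESN2 and DDIT4 in HMV-I. Of 15 measured genes of the ATF4 list, which holds ATF4 itself and was chosen with earlier results known, 13 were compared in HMV-I. Of these 13, 12 were lower in the unirradiated carbon-ion set without overlap, where 28.8% of all probes were. Higher without overlap were 0, and the median difference was -1.16. ATF4 was among the lower ones, at 5.84 in the carbon-ion set and 6.25 in the X-ray set. NUPR1, a stress-response chromatin protein, had a mean of 1.52 in the carbon-ion set and 4.76 in the X-ray set. TRIB3, a pseudokinase that feeds back on ATF4, had 2.97 and 5.89, CHAC1, a glutathione-degrading enzyme, 2.60 and 5.42, and the transcription factor ATF3 4.002 and 5.46, in the same order. Of 23 p53 targets, 14 were lower and 5 higher without overlap. CDKN1A, the cell cycle inhibitor p21, was among the lower ones, at 5.93 in the carbon-ion set and 7.14 in the X-ray set. The part of culture or handling in these differences was not tested, and set and beam cannot be told apart.

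Across all 6 lines SESN1 was higher in the unirradiated carbon-ion set by 0.40 ± 0.28, in 5 of 6 lines and without overlap in those 5. The shares of all probes above without overlap were 15.5% in 92-1, 24.0% in C32TG, 27.4% in HMV-I, 17.4% in HMV-II and 40.1% in MeWo, and also 17.4% in Colo679, where SESN1 overlapped. The limma fit over lines did not call it (adjusted p = 0.416, unadjusted p = 0.00783, 95% interval of the difference 0.13 to 0.67). SESN3 differed by 0.25 ± 0.33, SESN2 by -0.35 ± 0.75 and DDIT4 by -0.38 ± 0.62, none of them called (limma adjusted p from 0.528 to 0.587). SESN2 lay below without overlap in 92-1 and HMV-I and DDIT4 in 92-1, C32TG, HMV-I and MeWo, where 16.5% of probes did in 92-1, 28.2% in C32TG, 28.8% in HMV-I and 35.1% in MeWo. SESN3 lay below in Colo679, where 20.8% did, while 22.8% did in HMV-II, where no member was lower without overlap. SESN2 lay above in MeWo, SESN3 in C32TG, HMV-II and MeWo, and DDIT4 in Colo679 and HMV-II. For DDIT4 the HMV-II carbon-ion set had 1 measured array against 3, while 92-1 had 2 against 3, and Colo679 and MeWo had 3 against 2. Without HMV-I the SESN2 difference was -0.050 and the DDIT4 difference -0.16. No probe of the 32060 was called in this comparison by limma, with 3116 (9.72%) at an unadjusted p under 0.05, while a fit over single arrays called 17716.

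**Figure D3:**
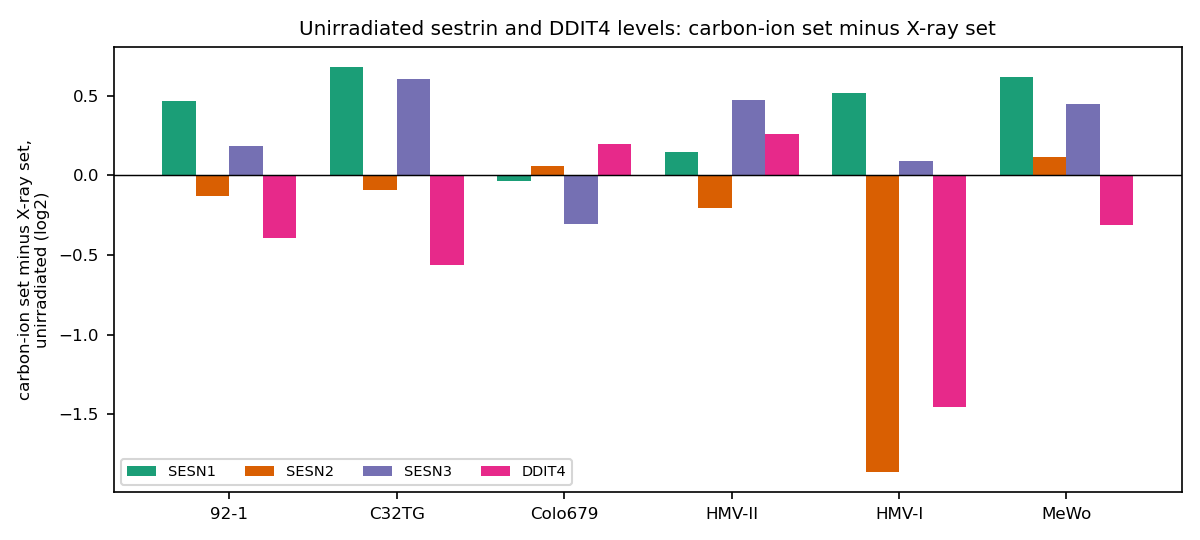
Unirradiated carbon-ion set minus unirradiated X-ray set (log2, vertical axis) for SESN1, SESN2, SESN3 and DDIT4 (bar colours) in the 6 lines (horizontal axis), each bar a difference of group means of up to 3 arrays per set; the DDIT4 bar of HMV-II rests on 1 carbon-ion array. The SESN2 and DDIT4 bars of HMV-I reach -1.86 and -1.46, and the SESN1 bars are above 0 in every line but Colo679.

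The beams were compared as the change after carbon ions minus the change after X-rays in each line, each against its own controls. SESN2 gave the most even difference: at 3 h the carbon-ion change exceeded the X-ray change by 0.26 ± 0.20 (95% interval 0.083 to 0.43), in 5 of 6 lines. It did not pass the limma fit over all probes (adjusted p = 1.00, unadjusted p = 0.00704), and the exact two-sided sign-flip test over 6 lines gave p = 0.0625, where 0.03125 is the smallest p this design allows. At 1 h the SESN2 difference was 0.15 ± 0.13 (95% interval 0.023 to 0.27), also in 5 of 6 lines, with adjusted p = 0.613 by limma and an exact sign-flip p of 0.0625. Fits over single arrays, which take the 3 arrays of a group as independent, put SESN2 past the threshold at 3 h (adjusted p = 2.3e-05) and at 1 h (0.0448).

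For the other members no difference between beams passed limma, and the intervals bound its size at 3 h. SESN1 differed by 0.13 ± 0.33 (95% interval -0.095 to 0.35), with HMV-I at -0.48 and 92-1, C32TG and Colo679 between 0.32 and 0.39. SESN3 differed by -0.16 ± 0.16 (-0.32 to 0.00095), and the change after X-rays was the larger in 5 of 6 lines. DDIT4 differed by 0.042 ± 0.29 (-0.17 to 0.25). All adjusted p-values at 3 h were 1.00 and the exact sign-flip p-values were 0.375, 0.0938 and 0.781 for SESN1, SESN3 and DDIT4, among 15 such tests on 5 member probes. The second DDIT4 probe (111079) differed by -0.11 ± 0.11 at 1 h and -0.085 ± 0.095 at 3 h, positive in 1 of 6 lines each time. Its exact sign-flip p-values were 0.0625 and 0.0938, the former equal to those of SESN2. Over all probes limma called 0 at either time, with 1430 (4.46%) at 3 h and 2421 (7.55%) at 1 h at an unadjusted p under 0.05, and fits over single arrays called 368 and 292.

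**Figure D4:**
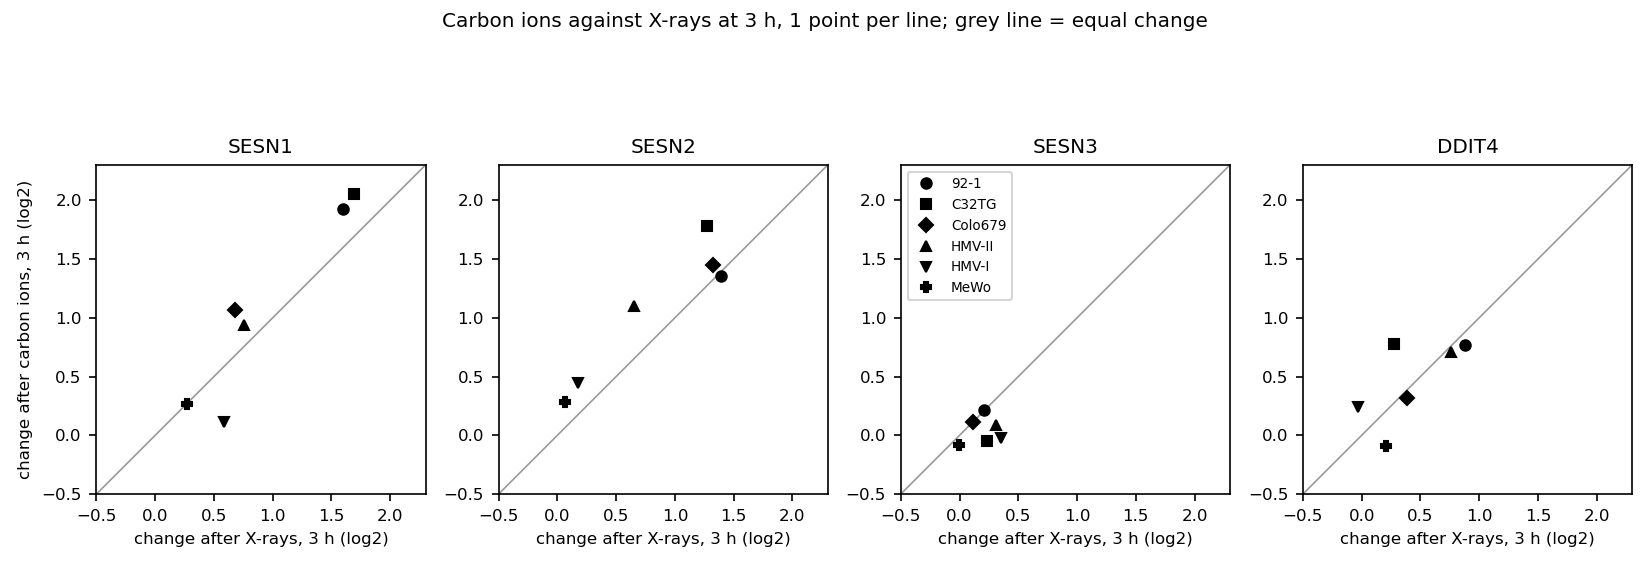
Change after carbon ions (vertical axis) against change after X-rays (horizontal axis) at 3 h in log2 units, 1 symbol per line, with the grey line marking equal change. SESN2 lies above the line in 5 of 6 lines, SESN1 in 4 of 6, and the SESN3 changes reach at most 0.35.

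Lines with larger changes after carbon ions also had larger ones after X-rays for SESN1 and SESN2. Over the 6 lines the changes at 3 h after both beams had a Pearson r of 0.94 for SESN1 and 0.94 for SESN2, against 0.65 for DDIT4 and 0.17 for SESN3, given as descriptions of 6 points per gene, with separate controls for each beam. For both SESN1 and SESN2 the 4 lines 92-1, C32TG, Colo679 and HMV-II lay above HMV-I and MeWo after either beam.

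Over the 12 changes at 3 h (6 lines, 2 beams), the genes most like each member were ranked among 13658 genes by Pearson r, as a description of points that share lines and controls. SESN1 was followed most closely by PPM1D (r = 0.97), the phosphatase that switches p53 signalling off, PMAIP1 (0.94), a pro-apoptotic BH3 protein, PLK3 (0.94), a stress-activated polo-like kinase, the zinc exporter SLC30A1 (0.92) and GADD45A (0.92), a growth-arrest gene. SESN2 was followed by the receptor tyrosine kinase EPHA2 (0.94), the noncoding transcript ZNF594-DT (0.93), PLK3 (0.93), ATF3 (0.92) and ZNF79 (0.90). SESN1 and SESN2 correlated at 0.84, and CDKN1A stood 12th for both, at 0.90 with SESN1 and 0.86 with SESN2.

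DDIT4 was most like PLK2 (0.91), ARV1 (0.88), ENC1 (0.88), FEZF2 (0.88) and TIGAR (0.88), of which PLK2 and TIGAR are p53 targets. Its r was 0.66 with SESN1, 0.67 with SESN2 and 0.63 with CDKN1A. SESN3, whose changes were small, was most like TRIM5 (0.88) and PCBP2 (0.86), and its r was 0.26 with SESN1, 0.054 with SESN2 and 0.19 with CDKN1A.

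The core of the mTORC1 pathway, in 5 lists chosen with earlier results known, changed little in mRNA level at 3 h. Of 46 measured genes, limma called 4 higher and 2 lower after carbon ions and 1 higher and 0 lower after X-rays, where 6.43% of all probes were called higher and 6.98% lower after carbon ions, and 2.96% and 4.19% after X-rays. After carbon ions the 46 genes had a median change of 0.0215 and after X-rays of 0.0405, against medians of 0.0040 and 0.0046 over all probes. At 1 h 3 were called higher after carbon ions and 2 after X-rays, and none lower, against backgrounds of 4.67% higher and 6.03% lower after carbon ions, and 0.368% and 0.786% after X-rays. These counts were not stable. The X-ray calls at 1 h, RRAGB and FNIP1, were both lost in 12 of 14 alternatives, among them the omission of any 1 line, which left 0 called. The carbon-ion count at 1 h was 0 without replicate 1, and 1 without Colo679, HMV-I, HMV-II or MeWo and with median centring. At 3 h after carbon ions 0 were called higher without 92-1, Colo679, HMV-I or replicate 1, 1 without HMV-II or replicate 3 and with no filter on level, and 2 without replicate 2, while the fits over single arrays called 12.

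The call at 3 h that held under all 14 alternatives run was the X-ray call of RRAGB, a Rag GTPase on which the sestrins act through GATOR1. RRAGB was higher by 0.29 ± 0.13 at 3 h after X-rays in 6 of 6 lines (limma adjusted p = 0.0122), and by 0.23 ± 0.16 after carbon ions, also in 6 of 6 lines (adjusted p = 0.0313, lost in 7 of 14 alternatives, at up to 0.157). Those were the omission of 92-1, Colo679, HMV-I, replicate 1 or replicate 3, median centring and the values as deposited. LAMTOR2, a Ragulator subunit that anchors the Rags to the lysosome, rose by 0.17 at 3 h after carbon ions (adjusted p = 0.0397), a call lost in 9 of 14 alternatives, at up to 0.139. Those were the omission of any 1 line but MeWo, of replicate 1 or replicate 3, median centring and no filter on level.

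Downstream, EIF4EBP2, a translation repressor that mTORC1 inactivates, fell by 0.29 ± 0.13 at 3 h after carbon ions in 6 of 6 lines (limma adjusted p = 0.0104, and 0.0506 without replicate 1). Its change after X-rays was -0.16 ± 0.31 (adjusted p = 0.306), and the difference between beams was not called (adjusted p = 1.00). RHEB, the GTPase that activates mTORC1 and that DDIT4 restrains through the TSC complex, fell by 0.25 ± 0.16 after carbon ions (adjusted p = 0.0327, lost without any 1 line but MeWo and without replicate 1 or 2). The other calls at 3 h were ITFG2, a KICSTOR subunit, at 0.16, and CAB39, a partner of the AMPK kinase LKB1, at 0.20, both after carbon ions (adjusted p = 0.0462 and 0.0366) and lost in 11 and 8 of 14 alternatives.

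Genes known to share the members' regulators were set beside them. Of 23 p53 targets measured, limma called 13 higher at 3 h after carbon ions and 12 after X-rays, and 0 lower, where 6.43% and 2.96% of all probes were called higher. The median changes of the list were 0.48 and 0.47. CDKN1A changed by 1.198 ± 0.74 after carbon ions and 1.18 ± 0.81 after X-rays (adjusted p = 0.00644 and 0.00707), and TP53INP1, GADD45A and PLK3 by 0.92, 0.89 and 0.88 after carbon ions. MDM2, the p53 ubiquitin ligase, changed by 0.54 ± 0.46 after carbon ions and 0.65 ± 0.53 after X-rays. Without HMV-II, 5 of the p53 targets were called after carbon ions and 7 after X-rays, and without 92-1 6 and 8. Without Colo679, 7 were called after carbon ions. These genes were already known to respond in these cells and add no independent evidence on the sestrins.

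Of 15 genes measured in the ATF4 list, ATF4 itself among them, limma called 4 higher at 3 h after carbon ions and 2 after X-rays, and 0 lower. The list medians were 0.11 and 0.082, and the same 6.43% and 2.96% of all probes were called higher. The carbon-ion count was 2 without 92-1, HMV-I, HMV-II or replicate 1 and with median centring, and the X-ray count was 1 without HMV-II and with median centring. The carbon-ion calls of TRIB3 and of the cystine transporter SLC7A11 were lost in 7 and 11 of 14 alternatives. Their largest changes were those of ATF3, which p53 also induces, at 0.92 ± 0.53 after carbon ions and 0.88 ± 0.48 after X-rays (adjusted p = 0.00532 and 0.0032). CHAC1 changed by 0.51 ± 0.32 after carbon ions (adjusted p = 0.00971), and its change after X-rays was 0.20 ± 0.24 (adjusted p = 0.137). The CHAC1 change was larger after carbon ions than after X-rays, by 0.31 ± 0.23 and in 6 of 6 lines, which limma did not call (adjusted p = 1.00). That was the highest difference between beams at 3 h among the 15 genes. Their differences ran down to -0.24, with a median of 0.017 and 0 called.

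Lists for the other regulators of DDIT4 and SESN3 held 0 to 2 called genes each at 3 h, where 6.43% of all probes were called higher and 6.98% lower after carbon ions, and 2.96% and 4.19% after X-rays. Of 12 HIF1 targets, EGLN3, an oxygen-sensing prolyl hydroxylase, rose by 0.33 ± 0.094 at 3 h after carbon ions (limma adjusted p = 0.0056), and the glucose transporter SLC2A1 fell by 0.20 (adjusted p = 0.0329, lost in 7 of 14 alternatives), while none was called after X-rays. Of 5 glucocorticoid receptor targets, TSC22D3 was called higher at 3 h after carbon ions, by 0.24. Of 11 FOXO factors and targets, GABARAPL1, an autophagy gene, was called after carbon ions at 0.20, and FOXO3 and TXNIP after X-rays at 0.23 and 0.18. The calls of TSC22D3, GABARAPL1, FOXO3 and TXNIP were each lost without 92-1 and HMV-II, among other alternatives.

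**Figure D5:**
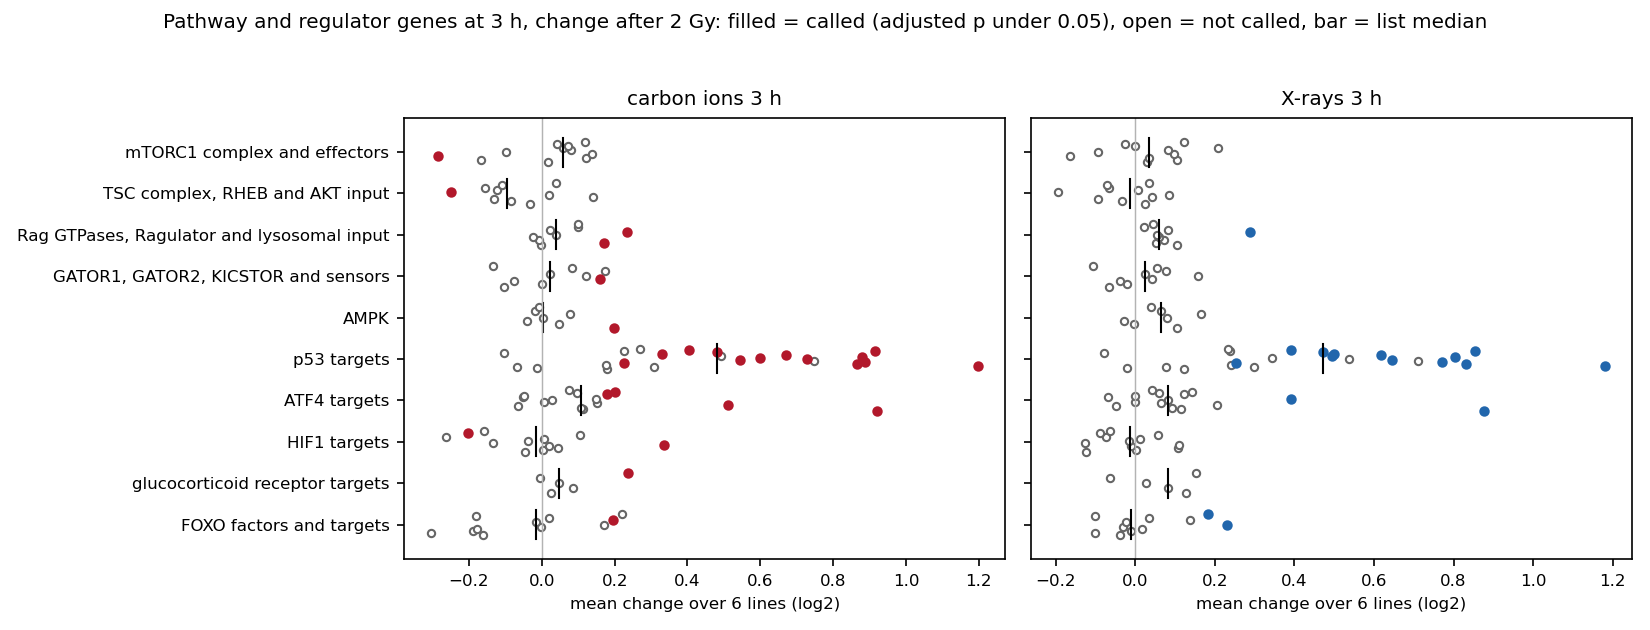
Mean change over 6 lines at 3 h (log2, horizontal axes) of the genes in each list (vertical axis), after carbon ions on the left and X-rays on the right; filled circles passed limma's adjusted p of 0.05, open circles did not, and black bars mark list medians. The p53 targets have medians of 0.48 and 0.47, while the 5 pathway lists at the top stay near 0.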

How the data were processed

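The deposited values are spot intensities on a linear scale from single-colour CodeLink arrays with a biotin label, per the labels. No software, background subtraction or scaling is given in the sources used here. Intensities were taken to log2. Probes were kept with at most 10% missing values, a value in every group and a mean above the 40th percentile, and the 32060 kept probes were quantile normalized. Of 54359 probes 23472 had 1 gene symbol, 905 had several and 29982 were not listed. The kept probe with the highest mean stands for its gene.

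For each line, the log2 mean of an irradiated group less that of its control group was fitted over the 6 lines with limma 3.58.1 in R 4.3.3 (intercept, eBayes with a trend on the mean level). Benjamini-Hochberg adjustment ran over all kept probes, with a threshold of 0.05, and the fit was tested on simulated data. Alternatives were other scalings, no level filter, single arrays with or without a replicate block, second probes, and each line or replicate number left out.

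The members and gene lists were chosen with earlier results of these data known, and the motifs after the values were seen. Named genes are the members, the 5 genes most like each, CDKN1A and MDM2, and up to 4 called genes per list with the largest changes. The genes named for the unirradiated HMV-I sets were picked after their values were seen. The number of arrays limits the precision.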

Additional observations from a re-analysis of the deposited data

Results flagged for a closer look

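SESN2 in HMV-I differed between the unirradiated sets by -1.8635, while the nearest other line was at -0.2068, a gap past Dixon's limit for 6 values. By the same limit, the second SESN3 probe (350096) stood apart in 92-1 at 3 h after X-rays, at 0.1938, against -0.0426 in the nearest line. The second DDIT4 probe (111079) did so in C32TG at 1 h after carbon ions, at 0.0545, against -0.1849. Of 42 groups of 6 lines examined 3 had such a line, and chance gives about 1 in 20.

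DDIT4 (probe 492063) at 1 h moved in opposite directions by line, without overlap between irradiated and unirradiated arrays. After carbon ions 92-1 was above its controls by 0.1485, and C32TG, Colo679, HMV-I and MeWo were below theirs. After X-rays 92-1 was above by 0.268, and C32TG, HMV-I and HMV-II were below. These differences between lines were not tested. Every rise without overlap was in 92-1, whose unirradiated arrays lay under the level filter's cut of -0.41. The second DDIT4 probe (111079) changed there by -0.31 after carbon ions and -0.063 after X-rays at 1 h, with arrays that overlapped the controls.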

How the results depend on the processing

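With single lines or replicate numbers left out, SESN1 at 3 h was 0.86 to 1.25 after carbon ions and 0.78 to 1.06 after X-rays, and SESN2 0.93 to 1.23 and 0.70 to 0.97. The difference between beams for SESN2 at 3 h was 0.20 to 0.31. Differences near 0 changed sign: SESN1 at 1 h ran from -0.128 to 0.058, SESN3 at 1 h from -0.1254 to 0.0908 and DDIT4 at 3 h from -0.0504 to 0.1097. SESN3 at 1 h was also 0.0018 with median centring and 0.0144 on the values as deposited. The SESN3 change at 1 h after X-rays ran from 0.0013 to 0.1749, the lowest without replicate 1. Counts of called probes ran from 1904 (without Colo679) to 3658 at 1 h and from 1813 (without 92-1) to 4947 at 3 h after carbon ions, and from 113 (without Colo679) to 271 and from 1159 (without 92-1) to 2120 after X-rays. They ran from 0 to 1 for the unirradiated sets (1 without Colo679), and 239 were called at 1 h after X-rays with no filter on level.

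The second SESN3 probe gave -0.0689 at 1 h and -0.0257 at 3 h after X-rays, 0.0834 and 0.1093 for the difference between beams at those times, and -0.038 for the unirradiated sets. The second DDIT4 probe gave -0.2627 after carbon ions and -0.1774 after X-rays at 3 h, and -0.1068 at 1 h and -0.0854 at 3 h for the difference between beams. The cause was not tested.

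A fit over all 108 arrays takes the arrays of a group as independent. Without a replicate block it called 8597 probes at 1 h and 13957 at 3 h after carbon ions, 3213 and 10029 after X-rays, 292 and 368 for the difference between beams, and 17716 for the unirradiated sets. With the replicate block these were 8858, 14039, 3526, 10239, 450, 517 and 17758. The SESN2 difference between beams was 0.1475 at 1 h (limma adjusted p = 0.0448, and 0.0486 with the block) and 0.2551 at 3 h (2.3e-05, and 0.00011 with the block). For the unirradiated sets SESN1 (0.3983), SESN2 (-0.3524), SESN3 (0.2495) and DDIT4 (-0.3779, and -0.3421 with the block) all passed, with limma adjusted p-values up to 1.76e-05. Correlations between the deviations of arrays that share a number ran from -0.35 to 0.39. Of 108 such correlations 27 were over 0.1, and the median was 0.031.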
